A study of Mus musculus with 8 samples.

Results

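The 8 genes described here are 5 ubiquitin ligases of muscle atrophy, Fbxo32, Trim63, Fbxo21, Fbxo30 and Fbxo31, and 3 transcription factors of the FoxO family, Foxo1, Foxo3 and Foxo4. They were picked out by gene symbol, with earlier results of these data known, and are 8 of the 12896 genes listed and 8 of the 12883 genes tested. RNA was sequenced from the quadriceps muscle of tumor-free male CD2F1 mice, which were 8 weeks old when treatment began. The 4 Folfiri mice were injected intraperitoneally with 5-fluorouracil at 30 mg/kg, leucovorin at 90 mg/kg and CPT-11 (irinotecan) at 24 mg/kg, 2 times per week for up to 5 weeks. The 4 Vehicle mice were injected with the carrier alone on the same schedule. Folfiri is a drug combination for colorectal cancer, and the experiment asked which genes change in muscle that wastes under this treatment. Each library stands for 1 mouse.

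A muscle fibre loses protein largely through the ubiquitin-proteasome system, in which a ligase marks a protein with ubiquitin and the proteasome then degrades it. FoxO factors are held in the cytoplasm when the kinase Akt phosphorylates them downstream of insulin and IGF-1. When Akt activity falls they enter the nucleus and switch on atrophy genes, among them Fbxo32 and Trim63, so the RNA level of the ligases is widely used as a readout of FoxO activity in muscle. That activity depends on phosphorylation and location and need not follow the RNA level of the factors themselves.

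Part of the control of these genes lies in the promoter, the sequence around the start of transcription. Promoters of 6 of the 8 genes were matched in RefSeq (build GRCm38.p6, 250 bases before to 50 bases after the start), with none for Fbxo32 and Foxo4. The Trim63 and Fbxo21 promoters are printed because both genes were below the Vehicle range in all Folfiri libraries while only the Trim63 promoter holds any of the motifs searched. The Trim63 window is chr4:134314870-134315169 (plus strand) and that of Fbxo21 is chr5:117976520-117976819 (plus strand). Capitals mark the matched motifs.
Trim63: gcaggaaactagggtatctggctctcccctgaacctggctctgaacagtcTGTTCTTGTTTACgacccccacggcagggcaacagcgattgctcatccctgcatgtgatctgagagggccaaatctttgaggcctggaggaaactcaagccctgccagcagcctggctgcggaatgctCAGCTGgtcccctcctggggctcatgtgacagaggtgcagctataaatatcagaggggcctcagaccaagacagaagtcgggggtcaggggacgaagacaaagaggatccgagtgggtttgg
Fbxo21: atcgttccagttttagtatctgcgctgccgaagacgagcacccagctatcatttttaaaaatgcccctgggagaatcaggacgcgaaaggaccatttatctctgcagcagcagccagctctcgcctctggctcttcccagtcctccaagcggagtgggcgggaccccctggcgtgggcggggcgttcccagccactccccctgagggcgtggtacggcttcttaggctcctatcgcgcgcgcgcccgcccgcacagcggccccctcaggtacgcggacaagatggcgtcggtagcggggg

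In the Trim63 promoter the first run of capitals holds TGTTCT, from -200 to -195 relative to the start. The sequence TGTTTAC follows it directly, from -194 to -188. TGTTTAC is the FoxO element read on the other strand, where it is spelled GTAAACA. The neighbouring TGTTCT is the core of the glucocorticoid receptor motif read on the other strand, where it is spelled AGAACA. The run further on is CAGCTG, an E-box of the kind bound by myogenic factors, from -72 to -67. The search covered both strands and also took in CACCTG, a further E-box, and the core of the insulin response element, spelled CAAAACA. No match to any of the 5 was found in the windows of Fbxo21, Fbxo30, Fbxo31, Foxo1 and Foxo3. Among all 32851 promoters of the same length, the FoxO element occurred in 3.65%, the insulin response core in 6.28%, the glucocorticoid receptor core in 18.97%, the first E-box in 16.3% and the other E-box in 20.2%. G and C made up 57.0% of the Trim63 window and 61.3% to 79.7% of the other 5, against a median of 52.7% over all promoters. A match of letters is no evidence of binding, and a window without a match says only that these letters are not in it.

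The libraries held 11921092 to 21056818 counted reads in the Folfiri group and 8505985 to 16303015 in the Vehicle group, and correlations between replicates ran from 0.948 to 0.978. Levels are given as reads per 1000000 counted reads (CPM) after scaling by TMM, a method of edgeR that evens out differences in library composition. Skeletal fibre markers, 12 of 12 of which were measured, summed to 141602 to 230946 CPM in Folfiri libraries and 133961 to 250266 CPM in Vehicle libraries. Of the heart muscle markers, Nppa, Nppb, Myl7 and Tnni3 were not listed, and the other 3 summed to at most 25.2 CPM. Markers of other cell types were uneven between libraries. The 10 adipocyte markers summed to 515 to 1872 CPM in Folfiri libraries and 784 to 3839 CPM in Vehicle libraries, with Vehicle 2 the highest. The 8 hepatocyte markers measured summed to 7.56 to 221 CPM in Folfiri libraries, with Folfiri 1 the highest, and to 0.785 to 9.28 CPM in Vehicle libraries. Of these 8, 6 had no read in at least 1 library. The 9 macrophage markers summed to 134 to 190 CPM in Folfiri libraries and 71.6 to 121 CPM in Vehicle libraries, with no overlap. The 7 endothelial markers summed to 147 to 341 CPM in Folfiri libraries and 278 to 419 CPM in Vehicle libraries, and 7 of 7 had a log2 fold change below 0 (median -0.41). The 8 slow fibre markers summed to 47.3 to 727 CPM in Folfiri libraries and 144 to 1768 CPM in Vehicle libraries, and 8 of 8 had a log2 fold change below 0 (median -0.93). Both lists were lowest in Folfiri 1 and highest in Vehicle 2, and none of their genes passed the adjusted threshold of the edgeR quasi-likelihood test.

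All 8 genes had a lower mean CPM in the Folfiri group than in the Vehicle group with TMM scaling, and only scaling to the reads of the 12 fibre markers, an alternative chosen after seeing the data, put a gene above, Foxo4 at a log2 fold change of 0.0017. No member passed the edgeR quasi-likelihood test at a Benjamini-Hochberg adjusted p under 0.05, a threshold that 1 gene, or 0.00776%, of all genes tested passed. At an unadjusted p under 0.05, 4 of the 5 ligases (Fbxo32, Trim63, Fbxo21 and Fbxo30) and 0 of the 3 FoxO factors were lower. Over all genes tested 518, or 4.02%, were lower at that level, and 706, or 5.48%, were higher. With library totals in place of TMM these counts were 188 lower and 1173 higher, with scaling to Tbp 465 and 235, and with scaling to the fibre markers 115 and 628, and the members lower at that level numbered 2, 4 and 0 in the same order. In Trim63, Fbxo21 and Fbxo30 the highest Folfiri library was below the lowest Vehicle library, as it was in 343 genes, or 2.66%, of all. The log2 fold change was below 0 in 8 of 8 members with TMM, and in 7 with the fibre markers, against 6266, or 48.6%, of all genes with TMM. The median log2 fold change was -0.44 over the members, -0.62 over the ligases and -0.34 over the FoxO factors, against 0.01 over all genes. In bulk muscle, fewer cells of a type and less RNA per cell cannot be told apart.

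**Figure D1:**
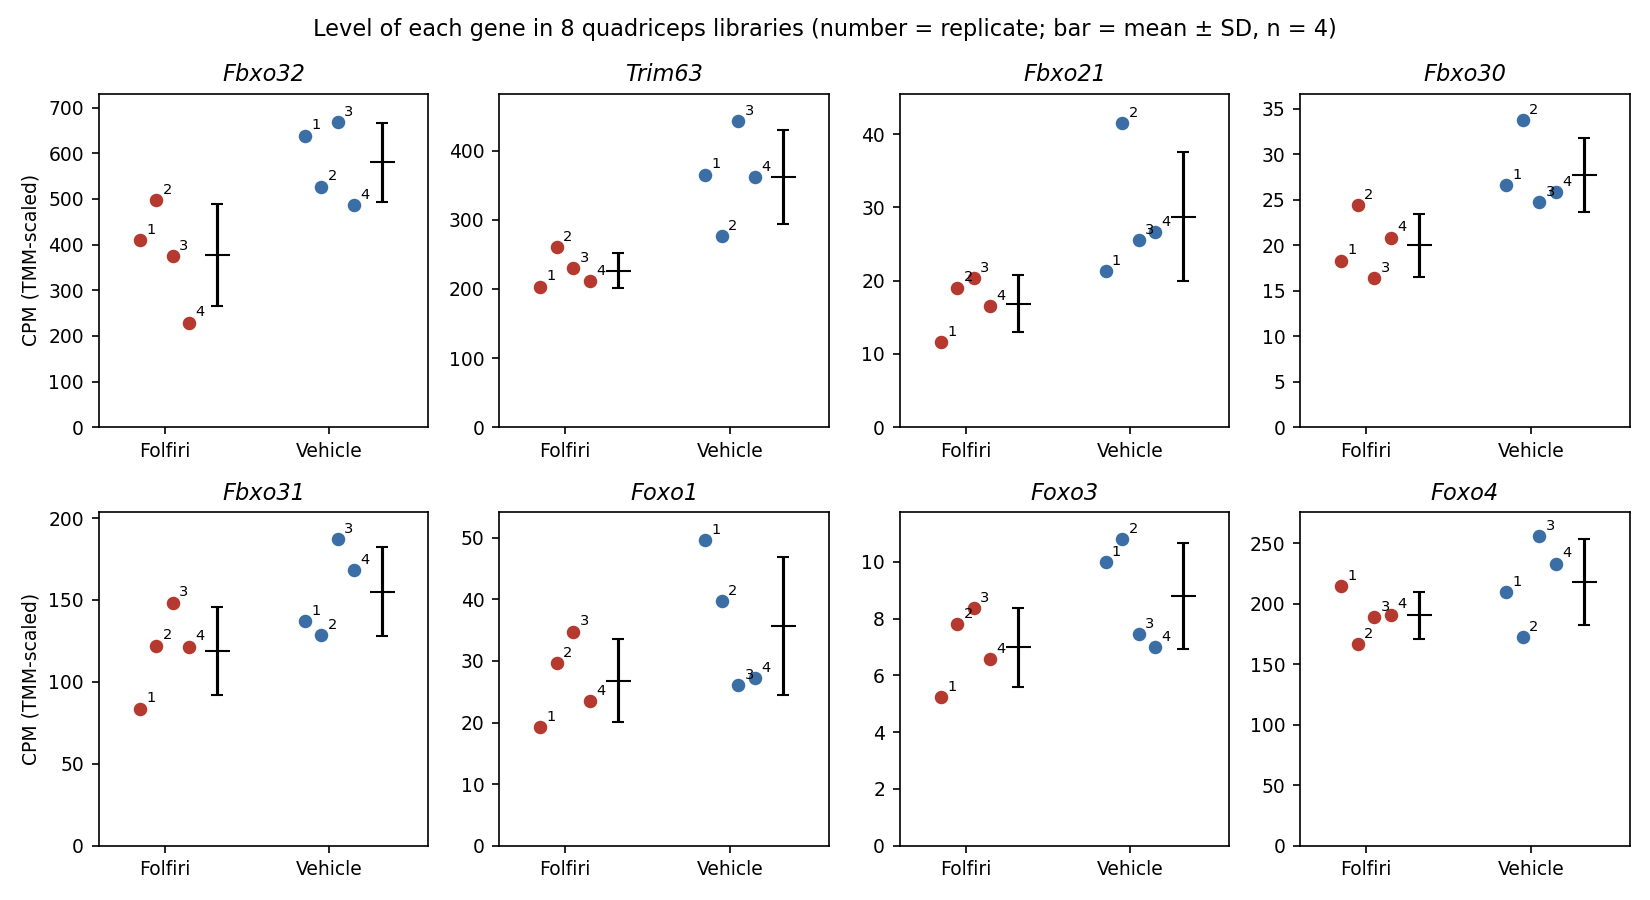
Level of the 8 genes in CPM (vertical axes, from 0) in the 4 Folfiri libraries (red, left) and the 4 Vehicle libraries (blue, right), each point a library marked with its replicate number, with the group mean ± SD beside it. The groups do not overlap for Trim63, Fbxo21 and Fbxo30 and do for the other 5 genes, and no gene passed the adjusted threshold of the quasi-likelihood test.

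Trim63 encodes MuRF-1, a RING-finger ligase of the sarcomere that is known to mark myosin and other thick-filament proteins for degradation. It lies on chromosome 4 from 133871035 to 133885544 (mm9, plus strand). Its level was 203, 261, 230 and 211 CPM in Folfiri libraries 1 to 4, against 366, 277, 443 and 362 CPM in Vehicle libraries 1 to 4. The Folfiri libraries were close together and all lay below the Vehicle libraries, with Vehicle 2 only slightly above Folfiri 2. The means were 227 ± 25.6 and 362 ± 68.0 CPM (SD, n = 4 each). The log2 fold change was -0.68 (SE 0.18, 95% interval -1.07 to -0.28), with an adjusted p of 0.307 by the edgeR quasi-likelihood test. It was the member with the smallest p, and DESeq2 called it lower, with a log2 fold change of -0.69 and an adjusted p of 0.0312. Over all genes tested DESeq2 called 52 higher and 25 lower, against 1 and 0 by the quasi-likelihood test. The edgeR exact test and limma voom made no call on any member.

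Fbxo32 encodes atrogin-1 (MAFbx), an F-box protein that brings substrates such as the translation factor eIF3f and MyoD to a ligase complex of the SCF type. It lies on chromosome 15 from 58007434 to 58046447 (mm9, minus strand). Its level was 409, 498, 375 and 229 CPM in Folfiri libraries 1 to 4, against 639, 527, 668 and 486 CPM in Vehicle libraries 1 to 4. Folfiri 4 stood lowest by a wide margin, and Folfiri 2 lay above Vehicle 4, so the groups overlapped. The means were 378 ± 112 and 580 ± 87.2 CPM (SD, n = 4 each). This gave a log2 fold change of -0.62 (SE 0.23, 95% interval -1.13 to -0.11), with an adjusted p of 0.460 by the edgeR quasi-likelihood test. Without Folfiri 4 it was -0.44.

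The proportion between the levels of Fbxo32 and Trim63 varied between libraries in both groups. The ratio of their CPM was 2.01, 1.91, 1.63 and 1.08 in Folfiri libraries 1 to 4, against 1.75, 1.90, 1.51 and 1.34 in Vehicle libraries 1 to 4. The ratio was above the Vehicle range in Folfiri 1 and barely so in Folfiri 2, at 1.907 against 1.903 in Vehicle 2. Only in Folfiri 4 was the ratio below the Vehicle range, since Fbxo32 there was low and Trim63 was near the other Folfiri libraries.

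Fbxo21 (SMART) and Fbxo30 (MUSA1) encode F-box proteins that were described as further FoxO-dependent or atrophy-induced ligase subunits in mouse muscle. Fbxo21 (chromosome 5, 118426779 to 118460200, mm9, plus strand) had 11.6, 19.1, 20.3 and 16.5 CPM in Folfiri libraries 1 to 4, against 21.3, 41.5, 25.5 and 26.6 CPM in Vehicle libraries 1 to 4. All Folfiri libraries lay below all Vehicle libraries, but Folfiri 3 and Vehicle 1 nearly met, and Folfiri 1 and Vehicle 2 were the extremes. The means were 16.9 ± 3.88 and 28.7 ± 8.80 CPM (SD, n = 4 each), and the log2 fold change of -0.77 (SE 0.24, 95% interval -1.28 to -0.25) was the most negative of the 8. The adjusted p was 0.398 by the edgeR quasi-likelihood test.

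Fbxo30 (chromosome 10, 11001128 to 11017767, mm9, plus strand) had 18.3, 24.4, 16.4 and 20.8 CPM in Folfiri libraries 1 to 4, against 26.6, 33.7, 24.7 and 25.8 CPM in Vehicle libraries 1 to 4. The highest Folfiri library and the lowest Vehicle library nearly touched, and Vehicle 2 stood above the rest. The means were 19.97 ± 3.47 and 27.7 ± 4.08 CPM (SD, n = 4 each). From these levels the log2 fold change was -0.47 (SE 0.18, 95% interval -0.86 to -0.08), with an adjusted p of 0.460 by the edgeR quasi-likelihood test.

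Fbxo31 encodes an F-box protein known for the degradation of cyclin D1 after DNA damage and described in mouse among the FoxO-dependent ligases of muscle. It lies on chromosome 8 from 124073343 to 124102706 (mm9, minus strand). Its level was 83.6, 122, 148 and 122 CPM in Folfiri libraries 1 to 4, against 137, 128, 187 and 168 CPM in Vehicle libraries 1 to 4. Folfiri 3 lay above Vehicle 1 and Vehicle 2, and Folfiri 1 was the lowest. Fbxo31 had a log2 fold change of -0.38 (SE 0.20, 95% interval -0.82 to 0.05), with an adjusted p of 0.558 by the edgeR quasi-likelihood test, and it was -0.25 without Folfiri 1. It was the only ligase whose interval included 0.

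**Figure D2:**
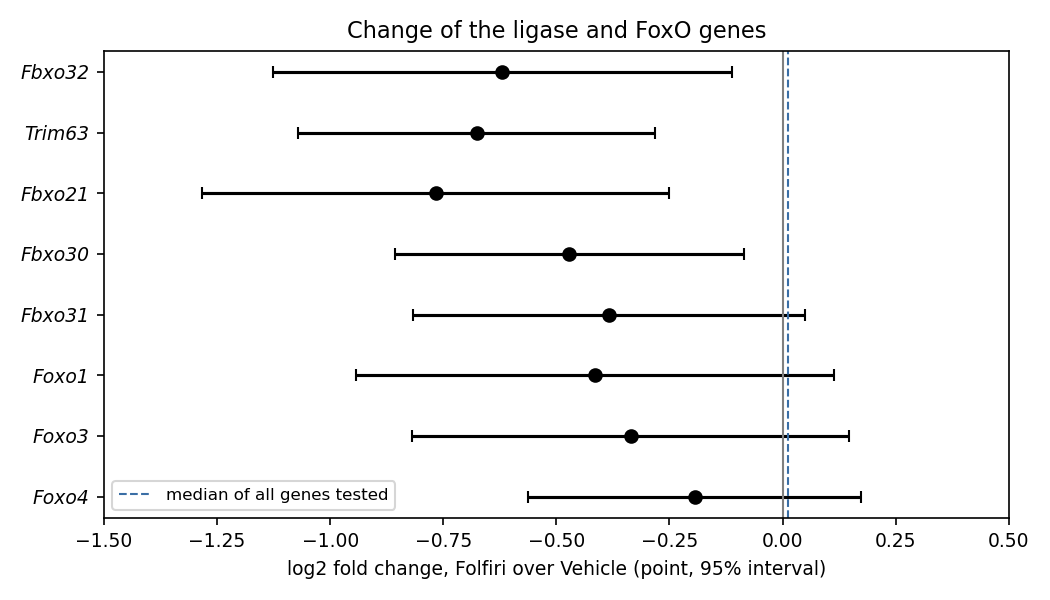
Log2 fold change of Folfiri over Vehicle (horizontal axis, point) with its 95% interval (bar) for each gene from the edgeR quasi-likelihood fit, and the median of all genes tested as a dashed line. The intervals of Fbxo32, Trim63, Fbxo21 and Fbxo30 lie below 0, those of Fbxo31, Foxo1, Foxo3 and Foxo4 include 0, and scaling to the fibre markers moved the Foxo4 point to 0.0017.

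Of the FoxO factors, none was lower at an unadjusted p under 0.05. Foxo1, which is induced in fasting muscle and drives atrophy genes when overexpressed in mice, lies on chromosome 3 from 52072259 to 52154031 (mm9, plus strand). It had 19.3, 29.7, 34.7 and 23.5 CPM in Folfiri libraries 1 to 4, against 49.6, 39.8, 26.03 and 27.3 CPM in Vehicle libraries 1 to 4. Vehicle 1 and Vehicle 2 were high, while Vehicle 3 and Vehicle 4 lay within the Folfiri range. For Foxo1 the log2 fold change was -0.41 (SE 0.24, 95% interval -0.94 to 0.11), with an adjusted p of 0.596 by the edgeR quasi-likelihood test. Without Vehicle 1 it was -0.21.

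Foxo3, which directly activates the atrogin-1 promoter and autophagy genes in mouse muscle, was the least abundant member. It lies on chromosome 10 from 41905592 to 41996548 (mm9, minus strand). Its level was 5.24, 7.81, 8.37 and 6.56 CPM in Folfiri libraries 1 to 4, against 9.98, 10.8, 7.45 and 6.99 CPM in Vehicle libraries 1 to 4. Again Vehicle 1 and Vehicle 2 were the highest and the other Vehicle libraries lay within the Folfiri range. These levels rested on 73 to 180 reads in a Folfiri library and 57 to 146 reads in a Vehicle library. The difference on the log2 scale was -0.34 (SE 0.22, 95% interval -0.82 to 0.15), with an adjusted p of 0.648 by the edgeR quasi-likelihood test. Without Folfiri 1 it was -0.22.

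Foxo4, the third family member of muscle, lies on chromosome X from 98449867 to 98456212 (mm9, plus strand). It had 215, 167, 189 and 191 CPM in Folfiri libraries 1 to 4, against 210, 173, 256 and 233 CPM in Vehicle libraries 1 to 4. The groups overlapped broadly, with Folfiri 1 above Vehicle 1 and Vehicle 2. Foxo4 thus had a log2 fold change of -0.19 (SE 0.17, 95% interval -0.56 to 0.17), with an adjusted p of 0.730 by the edgeR quasi-likelihood test. Without Vehicle 3 it was -0.11.

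The order of levels between the genes was compared as CPM per kb of gene model, since longer transcripts give more reads. In Folfiri libraries Trim63 stood at 120 ± 13.6, Foxo4 at 60.2 ± 6.17, Fbxo32 at 54.4 ± 16.1, Fbxo31 at 27.3 ± 6.11, Foxo1 at 4.83 ± 1.22, Fbxo21 at 4.32 ± 0.993, Fbxo30 at 3.90 ± 0.678 and Foxo3 at 2.42 ± 0.482 CPM per kb (SD, n = 4). In Vehicle libraries Trim63 stood at 192 ± 36.1, Fbxo32 at 83.6 ± 12.6, Foxo4 at 68.9 ± 11.2, Fbxo31 at 35.6 ± 6.26, Fbxo21 at 7.35 ± 2.25, Foxo1 at 6.42 ± 2.01, Fbxo30 at 5.42 ± 0.799 and Foxo3 at 3.05 ± 0.648 CPM per kb (SD, n = 4). Trim63 was thus the highest and Foxo3 the lowest in both groups, with ranges that overlapped no neighbour. The ranges of Fbxo32 and Foxo4 overlapped in both groups, as did those of Foxo1, Fbxo21 and Fbxo30, and that of Fbxo31 met Fbxo32 in Folfiri libraries only. Foxo4 was the most abundant of the FoxO transcripts, and its range overlapped neither that of Foxo1 nor that of Foxo3 in either group.

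Fbxo32 and Trim63 made up most of the reads on the 8 genes, which took 0.0776% to 0.123% of the counted reads of a Folfiri library and 0.130% to 0.147% of a Vehicle library. At this depth the 95% Wilson interval ran from 0.0762% to 0.0790% in the lowest library, Folfiri 4, and from 0.145% to 0.150% in the highest, Vehicle 3. These intervals cover counting error only, and the spread between libraries of a group was wider than any of them.

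The lowest and the highest library were not the same for every gene. Folfiri 1 was the lowest for 5 of the 8 genes, and the highest library was Vehicle 3 for 4, Vehicle 2 for 3 and Vehicle 1 for 1. Folfiri 1 was also the library with the most hepatocyte marker reads, and Vehicle 2 that with the most adipocyte marker reads. Without both libraries, an alternative chosen after seeing the data, Trim63 had a log2 fold change of -0.73 and Fbxo32 of -0.70. Fbxo21, in contrast, had -0.39, Foxo1 -0.23 and Foxo3 -0.10, each nearer to 0 than with all libraries by more than 1.5 times. Fbxo30 and Fbxo31 had -0.32, and Foxo4 had -0.35, further from 0 by more than 1.5 times. The members lower at an unadjusted p under 0.05 were then Fbxo32, Trim63 and Foxo4, beside 458 lower and 649 higher of all genes tested, and none passed the adjusted threshold of the edgeR quasi-likelihood test, with 0.191 the smallest adjusted p, for Trim63. The endothelial and slow fibre markers were also lowest in Folfiri 1 and highest in Vehicle 2, and the macrophage markers separated the groups, and the part of any of these in the results was not tested.

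**Figure D3:**
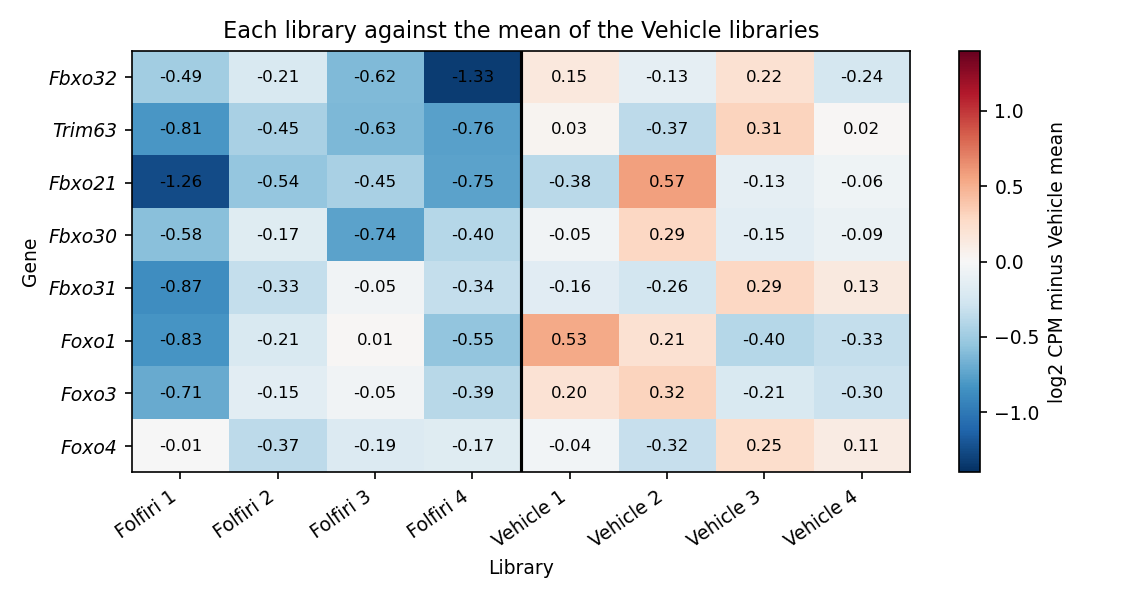
Level of each gene (rows) in each library (columns, Folfiri left of the line and Vehicle right of it) as log2 CPM minus the mean of the Vehicle libraries, with blue below and red above that mean. The lowest cells are Fbxo32 in Folfiri 4 at -1.33 and Fbxo21 in Folfiri 1 at -1.26, and Foxo1 and Foxo3 are high in Vehicle 1 and Vehicle 2.

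Foxo1 and Foxo3 varied together between the mice, while no relation with Foxo4 passed the test. Over the 8 libraries, Pearson's r of log2 CPM between Foxo1 and Foxo3 was 0.944 (exact permutation p = 0.000744, adjusted p = 0.0208 over 28 pairs) and Spearman's rho 0.952 (exact permutation p = 0.00114, adjusted p = 0.0319, two-sided). Without the 2 libraries farthest from the median of Foxo1, Folfiri 1 and Vehicle 1, r was 0.948, and leaving out each library in turn gave 0.917 to 0.972. The r of the deviations from the group means was 0.926, nearly as large as over all libraries. The longest exact stretch shared by transcripts of the 2 genes is 38 bases, and a read has 75 bases. Whether reads with mismatches were placed on the wrong gene was not tested. An r of this size with Foxo1 was not particular to Foxo3. Rilpl1 (r 0.966), Mir7225 (r 0.963) and Vcpip1 (r 0.961), found in a search of 7673 other genes, had a higher one.

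Of the 28 pairs of members, 24 had a positive r over the 8 libraries, which includes the difference between the groups, and 16 had a positive r on the deviations from the group means. Over the 8 libraries 5 pairs had an exact permutation p under 0.05 and 1, Foxo1 with Foxo3, passed the adjusted threshold. The same shares over pairs of other genes were not computed, so these counts say nothing particular about the members. Foxo4 had an r of -0.301 with Foxo1 (exact permutation adjusted p = 0.5225) and of -0.370 with Foxo3 (exact permutation adjusted p = 0.472), and neither passed. On the deviations from the group means of all 8 libraries these were -0.684 and -0.827. Without Vehicle 2 the r of log2 CPM itself, not of deviations, was -0.163 and -0.155. The size of that r thus depended on the libraries used. Fbxo32 and Trim63 had an r of 0.790 (exact permutation p = 0.0133, adjusted p = 0.137) and a rho of 0.857 (exact permutation p = 0.0107, adjusted p = 0.150). Their r was 0.782 without Folfiri 4 and Vehicle 3 and 0.488 for the deviations from the group means. For Trim63 and Fbxo31, r was 0.787 (exact permutation p = 0.0147, adjusted p = 0.137). Fbxo21 had an r of 0.781 with Fbxo30 and of 0.776 with Foxo3. Without Folfiri 1 and Vehicle 2 these were 0.443 and 0.0617, so the size of r depended on those libraries. Spearman's rho over the 8 libraries was 0.786 with Fbxo30 (exact permutation p = 0.0279, adjusted p = 0.195). With Foxo3 it was 0.619 (exact permutation p = 0.115, adjusted p = 0.358). Between the ligases and the FoxO factors, no pair passed the adjusted threshold.

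**Figure D4:**
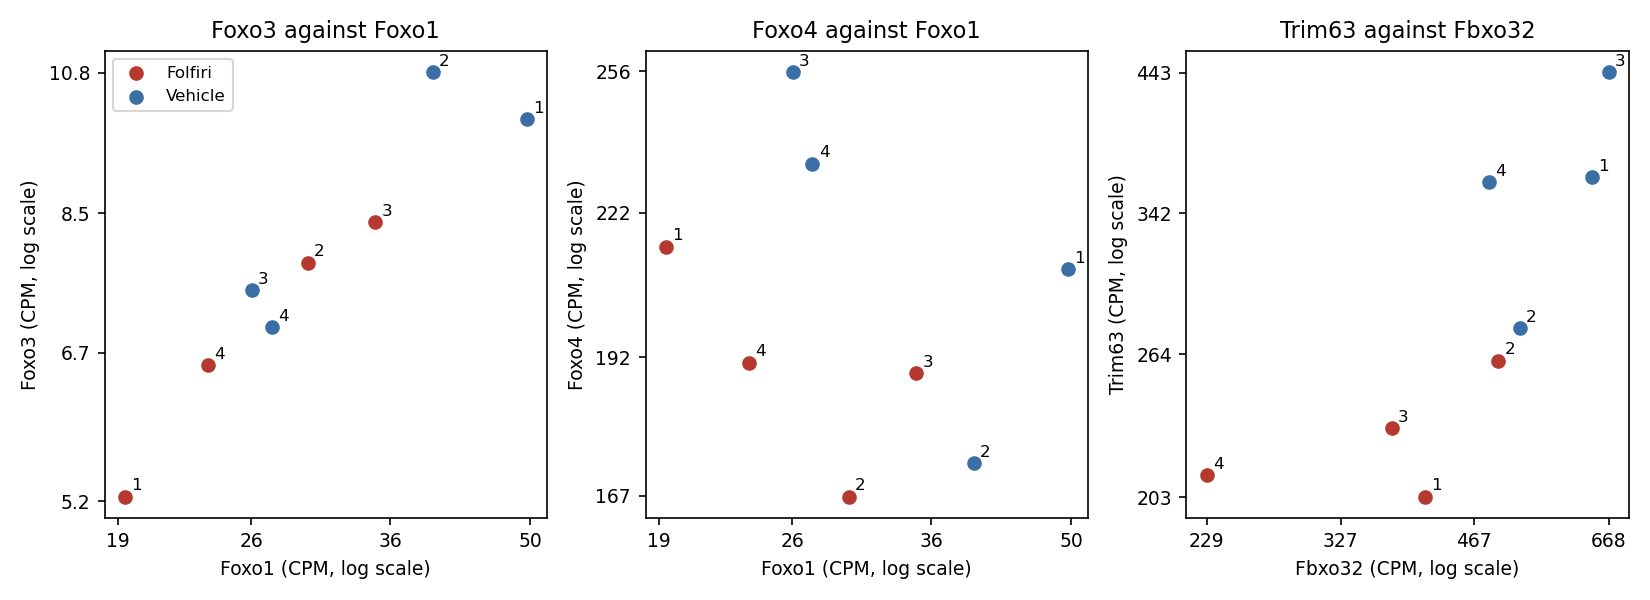
Level of Foxo3 against Foxo1, of Foxo4 against Foxo1 and of Trim63 against Fbxo32 in the 8 libraries (CPM, log axes), Folfiri in red and Vehicle in blue, numbered by replicate. Foxo1 and Foxo3 lie along a rising line with both groups mixed (r 0.944), Foxo1 and Foxo4 do not (r -0.301), and Trim63 with Fbxo32 (r 0.790) separates the groups along Trim63.

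The genes whose level over the 8 libraries was most like that of a member were sought among 7673 genes with a mean of at least 10 CPM, by Pearson's r of log2 CPM, as a description. For Trim63 these were Rab7, a GTPase of late endosomes and lysosomes (r 0.975), Ktn1 (r 0.954) and Itgb5 (r 0.951). Rab7 had 101 ± 12.1 CPM in Folfiri libraries and 157 ± 28.7 CPM in Vehicle libraries (SD, n = 4 each), with no overlap. For Fbxo32 they were Ctnnal1 (r 0.939), Pspc1 (r 0.938) and Scamp1 (r 0.923), and for Foxo1 they were Rilpl1 (r 0.966), Mir7225 (r 0.963) and Vcpip1 (r 0.961). Mir7225 lies within Pde4dip on the same strand, and the reads of these genes cannot be told apart.

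The other genes of the pathway were grouped by role. For comparison with the counts of each list, 4.02% of all genes tested were lower and 5.48% higher at an unadjusted p under 0.05. Of all 12883 genes tested, 343 had every Folfiri library below every Vehicle library and 370 had every one above. None of the 7 further lists held a gene past the adjusted threshold of the quasi-likelihood test, and all list medians were between -0.20 and 0.08 on the log2 scale, except that the edgeR exact test called Pdk4. The list of 16 regulators of FoxO activity includes Foxo6, a further FoxO factor, named here after its values were seen. Foxo6 had 2.30 ± 0.733 CPM in Folfiri libraries and 1.75 ± 0.733 CPM in Vehicle libraries (SD, n = 4 each). Its log2 fold change was 0.43, with an adjusted p of 0.730 by the edgeR quasi-likelihood test. Of the 16 genes, 2 were lower and 0 higher at an unadjusted p under 0.05, with a median log2 fold change of -0.08. The lower ones were Cited2, a transcriptional cofactor that binds CBP and p300, with 38.1 ± 8.21 CPM in Folfiri libraries and 61.8 ± 16.3 CPM in Vehicle libraries (log2 fold change -0.70), and Pdpk1 (PDK1), the kinase that activates Akt, with 64.2 ± 4.97 and 82.2 ± 5.92 CPM (log2 fold change -0.36, no overlap; SD, n = 4 each). The abundant 14-3-3 gene Ywhae had a log2 fold change of -0.26, the AMPK subunit gene Prkaa2 of -0.04 and the kinase Sgk1 of 0.45.

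Other known FoxO target genes went different ways. Of 24, 6 were lower and 1 higher at an unadjusted p under 0.05, against 4.02% and 5.48% of all genes tested. In 3 every Folfiri library was below every Vehicle library, against 2.66% of all genes. The log2 fold change was below 0 in 16 of the 24, against 48.6% of all genes, with a median of -0.06. Pdk4, the kinase that inhibits pyruvate dehydrogenase, had 125, 290, 576 and 432 CPM in Folfiri libraries 1 to 4, against 1408, 2561, 706 and 899 CPM in Vehicle libraries 1 to 4. Those groups did not overlap, and Vehicle 2 was far above the rest. The log2 fold change of Pdk4 was -1.97 (SE 0.47), with an adjusted p of 0.272 by the edgeR quasi-likelihood test. Gabarapl1, an autophagosome gene, had 38.6 ± 4.13 CPM in Folfiri libraries and 67.3 ± 24.97 CPM in Vehicle libraries (SD, n = 4 each). Its log2 fold change was -0.80, with an adjusted p of 0.357 by the edgeR quasi-likelihood test. Cdkn1a, which encodes the cell cycle inhibitor p21 and is also a target of p53, was the 1 gene higher at an unadjusted p under 0.05, with 25.4 ± 13.0 CPM in Folfiri libraries and 13.0 ± 2.26 CPM in Vehicle libraries (SD, n = 4 each). Its log2 fold change was 0.97, with an adjusted p of 0.414 by the edgeR quasi-likelihood test. Txnip, at -0.05, and Ulk2, at -0.02, were abundant and had almost the same log2 level in both groups, and Txnip overlaps Gm15441 on the other strand.

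Of 15 measured regulators of ligase transcription, 2 were lower and 1 higher at an unadjusted p under 0.05, with a median log2 fold change of -0.18. Ppargc1a (PGC-1α), which restrains FoxO-driven atrophy in mice when overexpressed, had 50.3 ± 6.89 CPM in Folfiri libraries and 84.4 ± 49.6 CPM in Vehicle libraries, a log2 fold change of -0.75 (SD, n = 4 each). Hdac4, a deacetylase of denervated muscle, had a log2 fold change of -0.34 with no overlap of the groups. Runx1, a transcription factor of denervated muscle, had 2.78 ± 0.558 CPM in Folfiri libraries and 1.61 ± 0.123 CPM in Vehicle libraries, with all Folfiri libraries above (log2 fold change 0.78; SD, n = 4 each). The glucocorticoid receptor gene Nr3c1 had a log2 fold change of 0.02, Smad3 of -0.18 and Hdac5 of -0.20.

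Among 23 genes grouped as other ubiquitin ligases of muscle, 1 was lower and 1 higher at an unadjusted p under 0.05, with a median log2 fold change of -0.06. Ubr4, a ligase of the N-degron pathway, had 235 ± 83.9 CPM in Folfiri libraries and 356 ± 47.0 CPM in Vehicle libraries (log2 fold change -0.60, no overlap; SD, n = 4 each). Fbxl22, an F-box protein of the Z-disc, had 3.43 ± 2.23 CPM in Folfiri libraries and 1.65 ± 0.804 CPM in Vehicle libraries, a log2 fold change of 1.05, and it overlaps Herc1 on the other strand. Zfand5, which was put in this group but is not an established ubiquitin ligase, had a log2 fold change of -0.35. Nedd4 had -0.38, Asb2 -0.06 and Wwp1 0.04.

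Of 13 genes for the SCF core, other cullins, cullin regulators, ubiquitin and its activation, 1 was lower and 1 higher at an unadjusted p under 0.05, with a median log2 fold change of -0.20. Skp1a, the adaptor that joins F-box proteins to the cullin, had 152 ± 23.2 CPM in Folfiri libraries and 201 ± 25.8 CPM in Vehicle libraries (log2 fold change -0.40; SD, n = 4 each). Cul3 had a log2 fold change of -0.20, the ubiquitin-activating enzyme gene Uba1 of -0.26 and Cops5 of 0.07.

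Of 14 ubiquitin-conjugating (E2) enzymes, 2 were lower and 1 higher at an unadjusted p under 0.05, with a median log2 fold change of 0.08. The lower ones were Ube2g2, at 65.5 ± 8.32 CPM in Folfiri libraries and 90.6 ± 7.64 CPM in Vehicle libraries, and Ube2g1, at 126 ± 15.9 and 165.5 ± 23.9 CPM, with no overlap for either (log2 fold change -0.47 and -0.39; SD, n = 4 each). Ube2g2 shares its strand with Mir1930. Ube2e1 had a log2 fold change of 0.50 and overlaps Nkiras1 on the other strand, and the abundant Ube2b and Ube2d1 had 0.23 and 0.21.

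Of 19 reported substrates of atrogin-1 and MuRF-1, 0 were lower and 2 higher at an unadjusted p under 0.05, with a median log2 fold change of -0.16. Mylpf, a fast myosin light chain, had 14282 ± 3819 CPM in Folfiri libraries and 8793 ± 2210 CPM in Vehicle libraries (log2 fold change 0.70; SD, n = 4 each), and Myod1, the myogenic factor MyoD, had 27.2 ± 7.27 and 18.7 ± 4.17 CPM (log2 fold change 0.54). Eif3f had a log2 fold change of 0.38, the fast myosin heavy chain Myh4 of -0.48, the actin Acta1 of -0.16 and titin, Ttn, of -0.14. RNA levels of substrates do not measure their degradation. Tbp, the reference gene of the study's qRT-PCR, had 8.61 ± 1.14 CPM in Folfiri libraries and 8.00 ± 1.85 CPM in Vehicle libraries (log2 fold change 0.10, 95% interval -0.36 to 0.56; SD, n = 4 each). By that qRT-PCR the study reported no change of Fbxo32, Trim63, Fbxo21, Fbxo30 and Fbxo31 in the muscle of mice given chemotherapy.

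**Figure D5:**
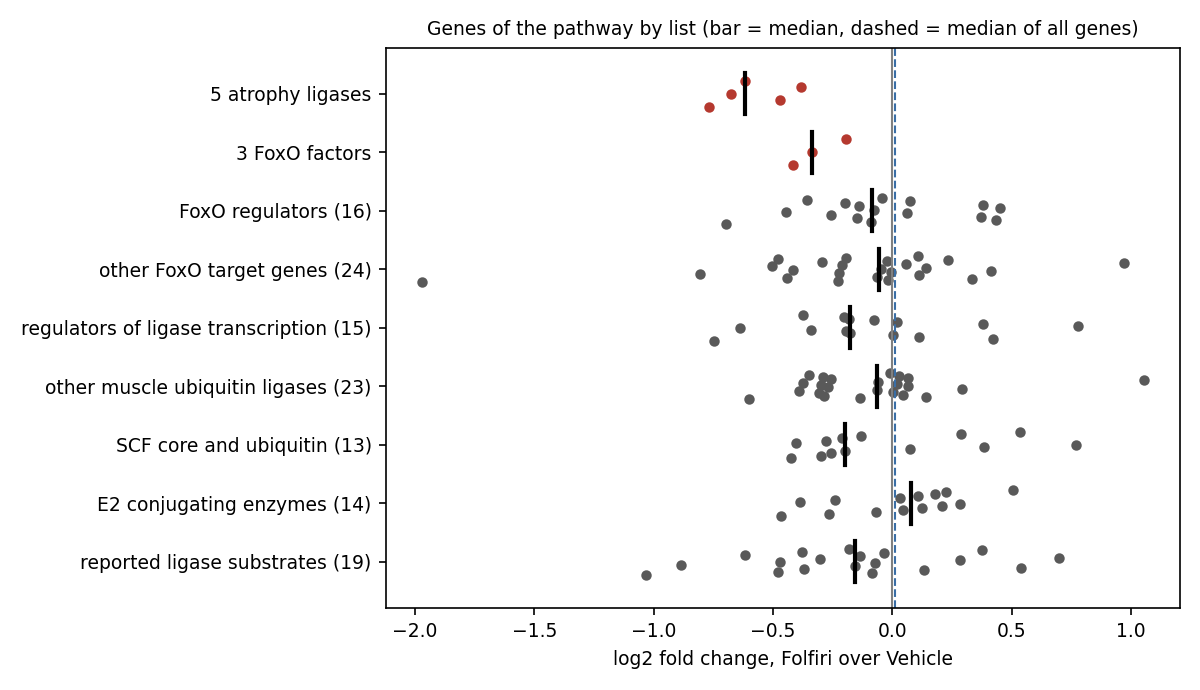
Log2 fold change of Folfiri over Vehicle (horizontal axis) for each gene of the ligases and FoxO factors (red) and of the 7 further lists (gray, number of genes in brackets), with the list median as a bar and the median of all genes as a dashed line. The ligase median is -0.62 and the FoxO median -0.34, while the other medians lie between -0.20 and 0.08, and 0 genes of these lists passed the adjusted threshold of the quasi-likelihood test.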

How the data were processed

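Per the methods of the study, poly(A) RNA was converted to strand-specific SOLiD libraries, low-quality, rRNA and tRNA reads were discarded, bfast aligned the rest to the mm9 genome and to splice junctions, and bamutils assigned them to RefSeq genes. What was deposited as counts is the number of reads that the authors assigned to a gene in each library, unscaled and with replicates kept apart. Their filter on low counts is not given in the sources used here. The table lists 0 genes of the mitochondrial chromosome and 21 names turned into dates. The authors' 8 scaled signal columns, fold changes, p-values and FDR values were not used, and gene length served only for levels per kb.

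With R 4.3.3, edgeR 4.0.16 scaled the counts by TMM and fitted the quasi-likelihood test to genes with at least 40 summed reads, two-sided, with Benjamini-Hochberg adjustment over all 12883 genes and a threshold of 0.05. With 6 residual degrees of freedom, the common biological coefficient of variation came to 0.261, and TMM factors were 0.898 to 1.168. Correlations used log2 CPM (prior count 2) and all 40320 arrangements. Groups came from the sample titles. Alternatives were the edgeR exact test, DESeq2 1.42.0, limma 3.58.1 (voom with sample quality weights), other scalings and filters, a replicate block and left-out libraries. The statistical steps were tested on simulated data. The members and lists were chosen with earlier results of these data known. Named genes are the members, of each list the 3 with the smallest p and the 3 most abundant, the 3 most like Fbxo32, Trim63 and Foxo1, and Tbp, and the results of 3 genes under this rule are not reported here. Foxo6 was named outside this rule, after its values were seen. Promoters came from RefSeq on GRCm38.p6, another build than the counts.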

Additional observations from a re-analysis of the deposited data

Results flagged for a closer look

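None of the 8 genes had a library that stood apart from its group by Dixon's criterion for 4 values. Of the 36 group values checked, over members and summed marker lists, 3 stood apart, and chance gives about 1 in 20, or 1.8. The summed heart muscle markers were 25.2 CPM in Vehicle 2, while the other Vehicle libraries had 10.9 to 11.4 CPM. The summed hepatocyte markers were 9.28 CPM in Vehicle 2, while the others of that group had 0.785 to 0.820 CPM. The summed macrophage markers were 190 CPM in Folfiri 3, while the other Folfiri libraries had 134 to 139 CPM.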

How the results depend on the processing

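Over 19 alternatives, 151 of 152 member values were negative, and 1 passed the adjusted threshold, Trim63 by DESeq2 (log2 fold change -0.69, adjusted p 0.0312, with 1 member called). The exception in sign was Foxo4 at 0.0017 when scaled to the fibre markers, an alternative chosen after seeing the data. The median of all genes, 0.01 by TMM, was 0.14 with library totals only, -0.12 when scaled to Tbp (44 to 206 reads a library) and 0.16 when scaled to the fibre markers. Over all alternatives the members' median lay 0.35 to 0.55 below the median of all genes. Rescaling moves all genes by nearly the same amount, and the other alternatives reuse the same libraries, so this gap is no independent support. Members lower at an unadjusted p under 0.05 numbered 4 by TMM, 2 with library totals and 0 with the fibre markers. Over all genes at that level, library totals gave 1173 higher and 188 lower, Tbp 235 higher and 465 lower, and the fibre markers 628 higher and 115 lower. At the adjusted threshold the quasi-likelihood test called 1 gene higher and 0 lower, the exact test 65 and 21, DESeq2 52 and 25, and limma voom 2 and 1. Called higher were 3 with library totals, 0 with Tbp, 4 with the fibre markers, 0 without Vehicle 2 and Folfiri 1, and 0 to 1 with each replicate left out. With the replicate block 3 genes were called higher, and 5 members were lower at an unadjusted p under 0.05, beside 957 higher and 706 lower of all genes. Same-number correlations of deviations were 0.300, 0.136, 0.0557 and 0.196, and those between different numbers ran from -0.295 to 0.294. These values do not settle whether mice were paired. The block was not the main fit, since the labels number replicates in both groups but do not pair mice. It moved no member past the adjusted threshold.

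Leaving out a replicate moved Trim63 between -0.78 and -0.56, Fbxo32 between -0.78 and -0.44, Fbxo21 between -0.89 and -0.53, Fbxo30 between -0.58 and -0.36, Fbxo31 between -0.51 and -0.25, Foxo1 between -0.57 and -0.21, Foxo3 between -0.43 and -0.22 and Foxo4 between -0.29 and -0.11 on the log2 scale. On deviations from the group means, r was 0.488 for Fbxo32 with Trim63, -0.68 for Foxo1 with Foxo4 and -0.83 for Foxo3 with Foxo4. With 4 mice a group, the 95% intervals of the members reached 0.37 to 0.53 to either side of the log2 fold change.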
